A study of Mus musculus with 2 samples.

Results

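The stretch from Cct6b to Unc45b lies 660 to 910 kb from the Ccl2 promoter on the side of higher coordinates, at chr11:82508193-82758192 in mm9. Its members were chosen by position: every DpnII fragment end with 1 copy in the genome and a fragment centre between these coordinates. This gave 1025 ends of the 424613 unique ends of chromosome 11 that had a value. They came from 1 circular chromosome conformation capture (4C-seq) library, whose viewpoint was the Ccl2 transcription start site. The cells were primary bone marrow-derived macrophages of C57BL/6 mice, grown with L929-conditioned medium and on day 7 of differentiation, labelled UT, which is read here as untreated. No genetic change is named in the labels. A library for the Jun start site covers chromosome 4 and holds no value for this stretch. With 1 library there is no test between samples, so every interval below is an exact 95% interval that covers counting error within this library. Neighbouring ends share their surroundings, and PCR copies without molecular identifiers count as separate reads, so these intervals are narrower than the error between cultures would be.

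In 4C-seq, cross-linked chromatin is cut with a first enzyme, here DpnII, and ligated, cut again with a second enzyme, written Csp61 in the labels, and circularised. An inverse PCR from the viewpoint then amplifies what was ligated to it. The share of fragment ends with a read shows how widely a stretch was recovered. Reads per end are a mean over all ends used, those without a read included. They thus reflect both this share and the reads on covered ends. Ccl2 encodes a chemokine that draws monocytes to inflamed tissue, and macrophages are one of its sources. Contact with a promoter normally falls with distance along the chromosome, so a stretch far from it is best read beside its neighbours.

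The stretch is crowded with genes of varied function. In GRCm38.p6 gene order it holds 8 protein-coding genes, which fill 84.7% of its length: Cct6b, a subunit of the cytosolic chaperonin found mainly in testis; Zfp830, a zinc finger gene needed in the early embryo; Lig3, a DNA ligase of single-strand break repair and of mitochondria; and Rffl, a RING finger ubiquitin ligase. Rad51d, a gene of homologous recombination, Fndc8, a fibronectin type III domain gene, Nle1, a factor of large ribosomal subunit assembly, and Unc45b, a myosin chaperone of muscle, follow. The flank of equal length on the near side, 410 to 660 kb, holds the tail of 1 protein-coding gene, Tmem132e, over 1.17% of its length. The far flank, 910 to 1160 kb, holds 7 Schlafen genes, a family induced by interferon, which fill 31.8% of it.

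The genes could be tied to the mm9 fragments through their DpnII sites. The sequence GATC, which is its own reverse complement, occurred at 28 places in the RefSeq promoters (GRCm38.p6) of genes around Ccl2. At 1 common shift between the builds all 28 fell within 16 bp of a fragment border in the file. At shifts more than 1 kb away from it at most 12 did. All 7 sites of the stretch were among the 28. The viewpoint centre lay 0.89 kb before the Ccl2 start. Of the 10 RefSeq promoters of the stretch, 5 hold GATC, against 48.0% of all 32851 promoters of 300 bases in the table. The sequences below are shown because their sites, in capitals, are the fragment borders next to the gene starts at which ligation was read out. They carry GRCm38.p6 coordinates, which differ from those of the mm9 file. Those of 30 bases or fewer show only the surroundings of 1 site, and the other 3 are the 250 bases before the start.
Cct6b, chr11:82764469-82764498, minus strand: cgaatggagattcGATCctcttccggttgg
Zfp830, chr11:82764203-82764232, plus strand: ggttagcgattttGATCgcagccatggttc
Lig3, chr11:82780859-82781108, plus strand: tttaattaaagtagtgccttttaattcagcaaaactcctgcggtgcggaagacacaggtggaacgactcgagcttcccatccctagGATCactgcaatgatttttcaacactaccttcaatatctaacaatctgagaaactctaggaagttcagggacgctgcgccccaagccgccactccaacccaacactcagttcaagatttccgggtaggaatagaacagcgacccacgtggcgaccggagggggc
Rffl, chr11:82871211-82871460, minus strand: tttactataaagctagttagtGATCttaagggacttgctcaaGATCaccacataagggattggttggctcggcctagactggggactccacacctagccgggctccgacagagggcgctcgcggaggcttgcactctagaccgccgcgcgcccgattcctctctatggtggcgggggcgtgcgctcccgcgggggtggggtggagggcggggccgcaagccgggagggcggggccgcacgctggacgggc
Unc45b, chr11:82911003-82911252, plus strand: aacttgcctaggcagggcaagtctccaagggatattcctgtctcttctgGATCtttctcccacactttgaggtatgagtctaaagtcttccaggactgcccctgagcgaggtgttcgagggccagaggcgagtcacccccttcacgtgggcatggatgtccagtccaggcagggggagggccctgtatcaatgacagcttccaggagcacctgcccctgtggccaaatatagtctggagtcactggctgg
Unc45b, chr11:82911277-82911302, plus strand: gctgggagcagcaGATCaagctgtct

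The stretch was ligated to the Ccl2 promoter on more of its ends than the gene-poor flank that lies nearer to the promoter. Of its 1025 ends, 222 had a read, which is 21.7% (19.2 to 24.3%). The background was 1.92% of all unique ends of the chromosome beyond 5 kb from the viewpoint and 9.95% of those between 500 and 2000 kb on the higher side, a range that includes the stretch. In the near flank 88 of 1030 ends had a read (8.54%, 6.91 to 10.4%), so the share in the stretch was 2.54 times as high (1.97 to 3.28) although it lies 250 kb farther out. In the far flank 76 of 568 ends had a read (13.4%, 10.7 to 16.5%), and the ratio was 1.62 (1.24 to 2.13). This last ratio depended on the use of unique ends: with ends of several copies included it was 1.10 (0.910 to 1.34), an interval that includes 1. On unique ends it was 1.36 (1.07 to 1.76) when values were not rounded and any value above 0 counted. The share in the far flank was then 16.4%. The stretch at the same distance on the lower side of Ccl2 had a read on 21 of 1049 ends (2.00%, 1.24 to 3.04%), close to the share of the whole chromosome. The interval of the stretch did not overlap those of the other 3.

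Reads per end, which also depend on the share of covered ends, showed the same order. The stretch held 17425 reads (17167 to 17686), or 17.0 per end, the near flank 4486 reads (4.36 per end), the far flank 6579 (11.6 per end) and the stretch on the lower side 1942 (1.85 per end). Reads per end in the stretch were thus 3.90 times those in the near flank (3.78 to 4.03) and 1.47 times those in the far flank (1.43 to 1.51). The density of unique ends was alike in the stretch and the near flank, at 4.10 and 4.12 per kb, and lower in the far flank, at 2.27 per kb, where 43.2% of ends with a value had several copies. The excess over the near flank was one of covered ends and of reads on each: a covered end had a median of 51 reads in the stretch (quartiles 21.0 and 118) and 34 in the near flank (9.75 and 75), and the mean per covered end was 1.54 times as high. A covered unique end of the far flank had a median of 65.5 reads, and the mean per covered end in the stretch was 0.907 times that of the far flank. With ends of any multiplicity the shares of covered ends were 21.3% in the stretch and 19.3% in the far flank and the reads per end 17.7 and 10.5, so whether the excess over the far flank lay in covered ends or in reads on them depended on which ends were used. The stretch held 1.93% of all reads beyond 5 kb of the viewpoint on 0.241% of the ends. Of the higher-side reads between 500 and 2000 kb it held 43.1%, on 1025 of the 5365 unique ends of that range.

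**Figure D1:**
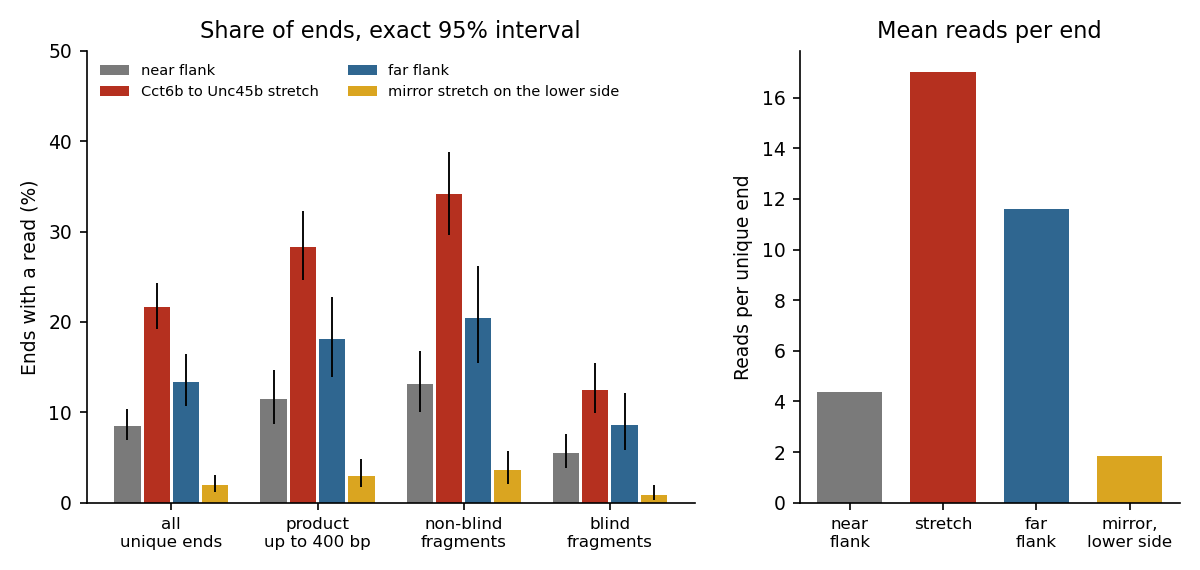
Left, share of fragment ends with a read (%) in the near flank, the stretch, the far flank and the stretch at equal distance on the lower side, for all unique ends and for 3 classes of ends; bars are shares in 1 library and lines exact 95% binomial intervals. Right, mean reads per unique end. The stretch stands highest in every class, with 21.7% of all its unique ends and 17.0 reads per end.

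The signal was spread over the stretch. Of its 25 windows of 10 kb, 24 had at least 5 ends with a read, against 6 of 25 in the near flank and 7 of 25 in the far flank, which has fewer unique ends. Every window held at least 1 read in the near flank as well as in the stretch. The longest distance between covered ends was 6.27 kb in the stretch and 17.4 kb in the near flank, which have unique ends at like density. In 25 kb steps the last step before the stretch, 635 to 660 kb, had a read on 7.95% of its ends (3.26 to 15.7%) and the first one inside, 660 to 685 kb, on 17.0% (10.5 to 25.2%). At the outer edge the last step inside, 885 to 910 kb, stood at 16.1% (10.1 to 23.8%) and the next one at 12.5% (7.01 to 20.1%). The intervals of these neighbouring shares overlap at both edges. Reads per end went from 2.76 to 14.1 across the near edge and from 8.34 to 9.42 across the outer one, and in 10 kb windows the near edge went from 21 reads on 1 of 35 ends to 966 reads on 8 of 55. Inside, the share was highest from 835 to 860 kb (29.3%), 735 to 760 kb (29.2%) and 785 to 810 kb (28.0%), and lowest from 685 to 710 kb (13.1%), where Cct6b lies.

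**Figure D2:**
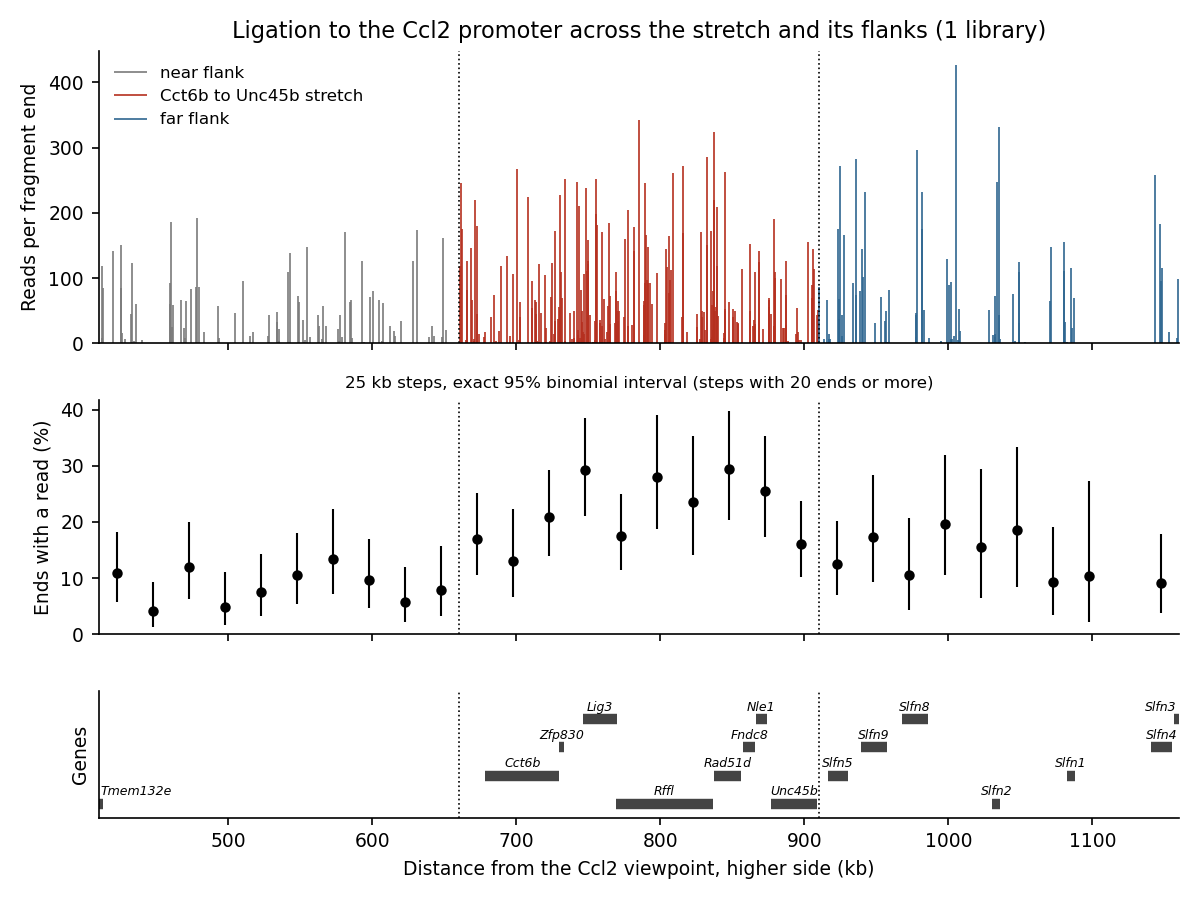
Top, reads on each unique fragment end with a read against the distance from the Ccl2 viewpoint (kb); middle, share of ends with a read in 25 kb steps with exact 95% binomial intervals; bottom, protein-coding genes placed by their DpnII sites. Dotted lines mark 660 and 910 kb, between which the step shares run from 13.1% to 29.3%.

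Set against the decay of reads with distance, the middle of the stretch stood out most. The expectation was a straight line through reads per kb and distance, both as log10, fitted to the higher side from 20 to 2000 kb (slope -1.20), and a window counted as raised at 3 times the line or more with at least 5 covered ends. In the stretch 5 of 25 windows were raised, against 5.05% of the 396 windows on both sides. The near flank had none and the far flank had 3, and the median window stood at 1.84 times the line in the stretch, 0.367 in the near flank and 0.726 in the far flank. The line takes no account of the number of unique ends, which was 4.10 per kb in the stretch and 2.27 in the far flank. In the far flank 8 of 25 windows held no read, some of them with few or no unique ends, so its folds are not on a like footing. The stretch takes part in the fit of this line, and with 1 line for both sides 11 of its windows were raised, against 6.82% of the 396 windows.

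The raised windows were also the 5 with the most reads. That at chr11:82678193-82688192 (830 to 840 kb) held 1859 reads, 6.43 times the line, with 17 of 40 ends covered; it holds the upper end of Rffl and the edge of Rad51d. That at 82588193 to 82598192 (740 to 750 kb) held 1559 reads, 4.70 times the line, with 16 of 41 ends covered, and includes the start of Lig3. The next one outwards, 750 to 760 kb, lies in Lig3 and held 1007 reads on 13 of 57 ends (3.09 times). The other 2 lie inside Rffl. The window from 780 to 790 kb held 1332 reads on 10 of 36 ends (4.28 times) and that from 800 to 810 kb held 1039 reads on 10 of 44 ends (3.44 times). The windows with the fewest reads were 890 to 900 kb in Unc45b, with 96 reads on 5 of 42 ends, and 690 to 700 and 680 to 690 kb in Cct6b, with 251 reads on 3 of 39 ends and 255 reads on 5 of 26 ends. They stood at 0.361, 0.697 and 0.696 times the line, so the level varied widely within the stretch.

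**Figure D3:**
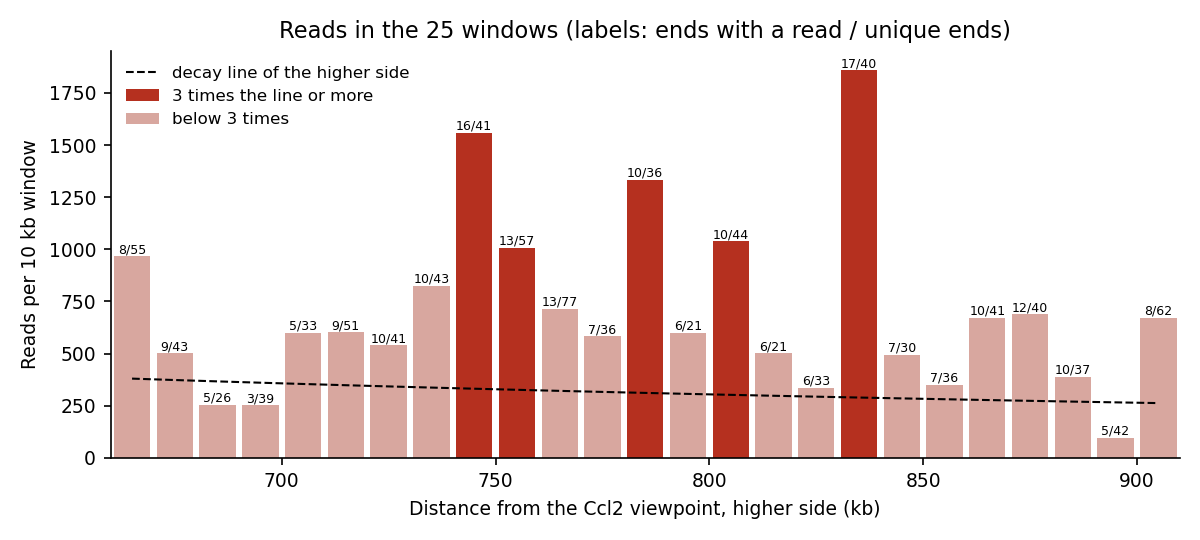
Reads in each of the 25 windows of 10 kb of the stretch against distance from the viewpoint (kb), with the number of ends with a read over unique ends above each bar and the decay line of the higher side dashed. The 5 dark windows reach 3 times the line or more, and the highest, at 830 to 840 kb, holds 1859 reads.

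All 8 gene bodies carried ligation to Ccl2, placed here by their distance from Ccl2 in GRCm38.p6. Cct6b, the gene nearest to Ccl2, had a read on 32 of 197 ends (16.2%, 11.4 to 22.2%) and 2179 reads in all. Zfp830, next to its start, had 6 of 22 ends covered (27.3%, 10.7 to 50.2%) with 552 reads. Lig3 had 32 of 138 (23.2%, 16.4 to 31.1%) with 2452 reads. These intervals overlap one another.

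Rffl, the longest gene of the stretch, had 56 of 223 ends covered (25.1%, 19.6 to 31.3%) and held the most reads of any gene, 5350. Rad51d had the highest share, 20 of 68 ends (29.4%, 19.0 to 41.7%), with 1735 reads, and Fndc8 the lowest, 4 of 27 (14.8%, 4.19 to 33.7%), with 264 reads. Nle1 had 7 of 27 (25.9%, 11.1 to 46.3%) with 429 reads, and Unc45b, at the outer end, 28 of 143 (19.6%, 13.4 to 27.0%) with 1655 reads. The 2 long genes at the edges, Cct6b and Unc45b, had the fewest reads per end after Fndc8, at 11.1 and 11.6, while Rffl had 24.0 and Rad51d 25.5. No 2 of the 8 genes had intervals of the share of covered ends that were apart, so their order is not fixed by this library. The lower bounds of all but Fndc8 lay above the upper bound of the near flank, 10.4%. With the genes placed by their DpnII sites the lower bounds of the short Zfp830 and Nle1 were 6.81% and 9.36%, so for these 2 this depended on the placement. For Nle1 it also depended on the reads asked of an end. With at least 3 reads its lower bound was 6.30%, below the near flank's share of 7.57%. With genes placed by their DpnII sites, ends within protein-coding genes and between them had a read at overlapping shares, 21.5% of 846 ends (18.8 to 24.4%) and 22.3% of 179 ends (16.5 to 29.2%).

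**Figure D4:**
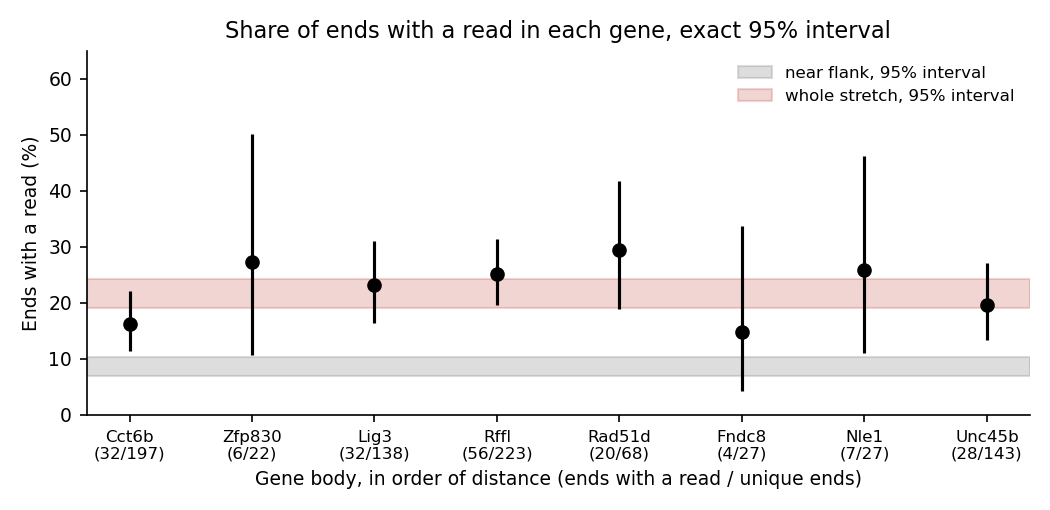
Share of unique fragment ends with a read (%) in the body of each protein-coding gene of the stretch, in order of distance from Ccl2, with exact 95% binomial intervals and the counts under each name; shaded bands are the intervals of the near flank and of the whole stretch. With genes placed by their distance from Ccl2, shares run from 14.8% in Fndc8 to 29.4% in Rad51d, with overlapping intervals.

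Ends near the start of Lig3 and the outer start of Rffl were covered more often than the rest of the stretch. Within 5 kb of the 8 annotated starts with a RefSeq promoter (2 of them of Rffl, none of Rad51d), 70 of 242 ends had a read (28.9%, 23.3 to 35.1%) and the mean was 26.1 reads per end. In the remainder of the stretch 152 of 783 ends had one (19.4%, 16.7 to 22.4%), with 14.2 reads per end. These intervals do not overlap, and the window of 5 kb was chosen after results of these data were known. The difference rested largely on 2 starts, picked here for their values: without those of Lig3 and the outer Rffl start, 37 of 158 ends had a read (23.4%, 17.1 to 30.8%), with 18.3 reads per end, an interval that overlaps that of the remainder. These 2 starts were picked as the highest, so their own excess is no separate result. Their surroundings are largely the raised windows at 740 to 750 and 830 to 840 kb described above. The intervals of single starts overlap. The 10 kb around the Lig3 start had 17 of 41 ends covered (41.5%, 26.3 to 57.9%) and 1602 reads, and the 10 kb around the outer Rffl start 16 of 43 (37.2%, 23.0 to 53.3%) and 1832 reads. Around the Cct6b start, which lies beside that of Zfp830, it was 11 of 50 (22.0%, 11.5 to 36.0%) and 1029 reads, around that of Unc45b 12 of 39 (30.8%, 17.0 to 47.6%) and 668 reads, and around that of Nle1 8 of 35 (22.9%, 10.4 to 40.1%) and 262 reads. The inner Rffl start had 7 of 24 (29.2%, 12.6 to 51.1%) and that of Fndc8 6 of 39 (15.4%, 5.86 to 30.5%).

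The DpnII sites printed above show the ligation at single borders. Each site has an end in the fragment below it and an end in the fragment above it. At the Cct6b site, 729.8 kb from the viewpoint, the end above had 227 reads, the end below none. At the Zfp830 site, at 729.5 kb, the end above had 56 reads and the end below none; this end belongs to the 266 bp fragment that holds the starts of both genes. At the Lig3 site, at 746.3 kb, the end above, in the 1429 bp fragment with the Lig3 start, had 106 reads and the end below none, and the other end of that fragment had 15. Of the 2 Rffl sites, the farther one from the start had 30 reads on the end above and none below, and the nearer one none on either. At the Unc45b site before the start neither end had a read, and at the site 37 bases behind it the end below had 45 reads and the end above 1. Reads thus fell on 1 end of a site where they fell at all, except at that last site. The lengths from the end to the second cutter were 21 bp for the Cct6b end with 227 reads, 217 bp for the Lig3 end and 60 bp for the Rffl end, against 581 to 723 bp for the ends without a read below the Cct6b, Lig3, Rffl and first Unc45b sites. The former ends lay in fragments that hold a site of the second cutter, and all of the latter in fragments without one. Length and kind of fragment thus cannot be told apart at these sites. The order was not strict: an end at the nearer Rffl site had 81 bp and no read, and the Unc45b end with 45 reads had 961 bp. Both of these lay in fragments without a site of the second cutter, as did the Zfp830 end with 56 reads. Of the 3 protein-coding starts whose promoters hold no GATC, the fragments at those of Nle1 and Fndc8 had no read on the ends with a value, and the fragment at the inner Rffl start had 60 reads on its upper border.

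The 10 ends with the most reads lay between 700.6 and 844.7 kb, and they did not dominate the total. The highest, in Rffl at position 82633201 (785.0 kb), had 343 reads, and the next, at the lower edge of Rad51d at 82685521 (837.3 kb), had 324. The next pair, at 82680273 and 82664113, lie in Rffl with 286 and 272 reads. The fifth lies in Cct6b, at 82548833, with 267 reads, the sixth in Rad51d at 82692929 with 262, the seventh in Rffl at 82656929 with 261 and the ninth in Lig3 at 82603169 with 252. The eighth (82582193, 252 reads) and the tenth (82590433, 247 reads) lie between Zfp830 and Lig3. These 10 ends held 15.9% of the reads of the stretch. The far flank's highest end, at 427 reads, exceeded any in the stretch. Of its 222 covered ends 43 held 50% of the reads, as did 16 of 88 in the near flank and 14 of 76 in the far flank, so reads were concentrated to a like degree. In the stretch 70 ends had at least 100 reads and 14 had only 1 or 2.

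How well an end was recovered went with the length from it to the next site of the second cutter. In a fragment that holds such a site, this is the length of the product to be circularised and amplified. In a fragment without one it runs past the fragment's other border and is not a product length. Such ends were 57.7% of those of the stretch, and the length classes below hold both kinds. The length column was assigned to each end from the fall of reads with length over the whole chromosome. The direction of that fall here is a description and no independent result. In the stretch 32.4% of ends with a length up to 50 bp had a read (22.0 to 44.3%), 33.7% of those from 50 to 100 bp, 28.7% from 100 to 200 bp, 25.1% from 200 to 400 bp, 39 of 243 ends from 400 to 800 bp (11.7 to 21.3%) and 10.9% beyond (7.08 to 15.7%). The mean number of reads per end was 41.4 in the shortest class and 2.99 in the longest. Ends of fragments that hold a site of the second cutter had a read in 34.1% of cases (29.6 to 38.8%) and those of fragments without one, called blind, in 12.5% (9.96 to 15.5%). Within blind fragments the share was 12.8% for lengths up to 400 bp and 12.4% above, while reads per end were 8.69 and 3.12. In fragments with a site the shares were 36.2% and 21.3%. Of the top 10 ends 9 were in fragments that hold such a site. Fragments up to 100 bp long had a read on 6.50% of ends and longer ones on 25.3%.

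These lengths were not spread quite equally. In the stretch 54.7% of ends had a length up to 400 bp, blind fragments included, against 45.7% in the near flank and 54.6% in the far flank. Ends with such a length in fragments that hold a site were 36.4%, 31.7% and 34.5% of all ends, in the same order. Among all ends with a length up to 400 bp, 28.3% had a read in the stretch (24.6 to 32.3%). It was 11.5% in the near flank (8.73 to 14.7%) and 18.1% in the far flank (13.9 to 22.8%). The ratio of the shares was 2.47 (1.80 to 3.43) over the near flank and 1.57 (1.15 to 2.17) over the far flank, and that of reads per end 3.67 and 1.45. In blind fragments the stretch had 12.5%, the near flank 5.50% (3.84 to 7.60%) and the far flank 8.58% (5.82 to 12.1%), the last of which overlaps the interval of the stretch.

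**Figure D5:**
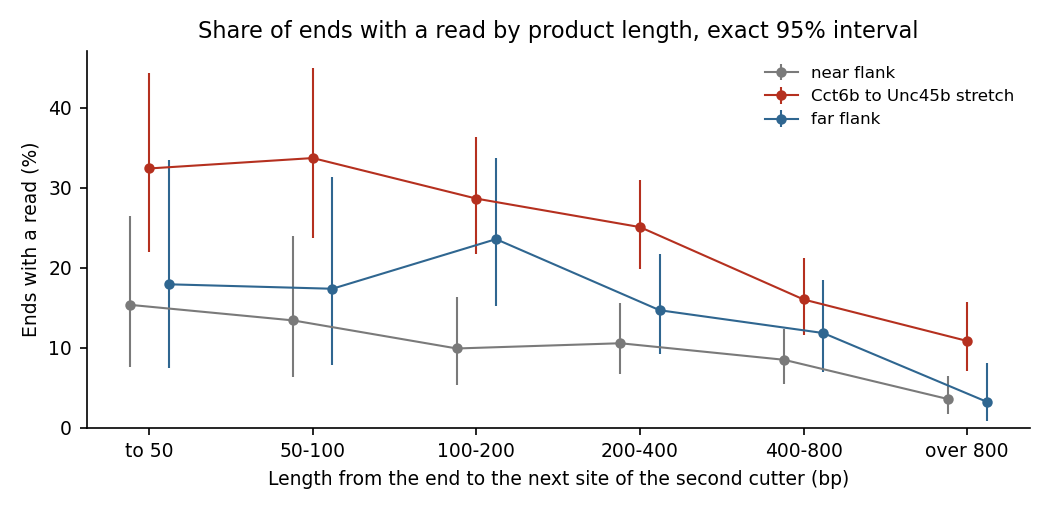
Share of unique ends with a read (%) by the length from the end to the next site of the second cutter (bp), in the near flank, the stretch and the far flank, with exact 95% binomial intervals. In the stretch the share goes from 32.4% at up to 50 bp to 10.9% beyond 800 bp, and in each class it lies above that of both flanks. Each class holds ends of fragments with and without such a site, and in the latter the length runs past the fragment's border.

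Few fragments of the stretch had a read on both ends, though an end was read somewhat more often where its partner was. That difference was not tested. Of 424 fragments of the stretch with 2 unique ends, 26 had a read on both, 128 on 1 and 270 on neither. An end had a read in 28.9% of cases where the other end of its fragment had one and in 19.2% where it had none. Across a shared DpnII site the figures were 19.8% and 21.7%. In the near flank 1 of 468 such fragments had both ends read and in the far flank 5 of 206, where fewer ends had a read at all. There an end had a read in 2.56% (near flank) and 17.9% (far flank) of cases where the other end had one. Where the other end had none, it was 8.86% and 12.9%. Upper and lower borders were read alike in the stretch, on 21.1% and 22.2% of ends.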

How the data were processed

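4C-seq was run on untreated macrophages with 1 library per viewpoint; per the labels' protocols, chromatin was fixed with 2% formaldehyde for 10 min and 8 PCRs from 200 ng of template were pooled. Positions are in mm9, the build named in the submitters' processing notes; the name of the aligner was not given in the sources used. The deposited values are estimated counts of reads on the 2 ends of each DpnII fragment, in bins of 16 bp, a reading of the unit that rests on the values. They were rounded to whole reads, and ends with a multiplicity of 1 were used. The library held 1248937 reads on such ends, 901507 of them beyond 5 kb of the viewpoint (chromosome 11, position 81848193).

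The value named for the 3′ end was taken as that of the upper border and paired with the length in the last column, because its reads fell with that length and not with the other. Intervals are exact binomial (Clopper-Pearson) or exact Poisson; that of a ratio is the exact binomial interval of the stretch's part of both counts. No test between samples was possible. Named were all protein-coding genes of the stretch, the 5 windows with most and 3 with fewest reads and the 10 ends with most reads. The rule for the members uses position and copy number, but the stretch and the lists were chosen with earlier results of these data known. Site matching was used for starts, single borders and the split within and between genes, distance from Ccl2 for single gene bodies. The calculation was tested on simulated reads. Python 3.11.15 with scipy 1.17.1 was used.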

Additional observations from a re-analysis of the deposited data

Results flagged for a closer look

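Ends whose sequence has several copies were left out of the values above, and they carried reads too. In the stretch 26 of 140 such ends had a read (18.6%, exact 95% interval 12.5 to 26.0%), with 3218 reads in all. In the near flank it was 7 of 62 ends (11.3%, 4.66 to 21.9%) with 280 reads. In the far flank with the Schlafen genes it was 117 of 432 ends (27.1%, 22.9 to 31.5%) with 3926 reads, a share above that of the unique ends there (13.4%), while in the stretch both kinds of end stood close together. They stand out as reads in data that the comparisons did not use. How a read was assigned among the copies was not given in the sources, and where these reads came from was not tested.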

How the results depend on the processing

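The stretch had the higher value than both flanks in reads per end and in the share of ends with a read under every alternative run for these values, but with ends of any multiplicity the interval of the share over the far flank included 1. The alternatives with lengths up to 400 bp to the second cutter, blind fragments included, and without the 10 highest ends were added after seeing the data. The share of covered ends in the stretch was 18.2% when an end needed 10 reads, 34.1% in fragments with a second-cutter site and 28.3% with lengths up to 400 bp. Reads per end over the near flank were 4.06-fold with ends of any multiplicity, 4.32-fold in fragments with a second-cutter site, 4.51-fold with edges moved 25 kb inwards, 3.67-fold with lengths up to 400 bp and 5.08-fold without the 10 highest ends of each stretch. Over the far flank they were 1.69-fold with ends of any multiplicity, 1.54-fold with high ends capped at the 95th percentile and 2.11-fold without the 10 highest ends, and the ratio of covered shares was 1.10 (0.910 to 1.34) with ends of any multiplicity. With values not rounded this ratio of shares was 1.36 (1.07 to 1.76). The 10 highest ends held 15.9% of the reads in the stretch, 35.4% in the near flank and 42.0% in the far flank. Their removal takes a larger part of the flanks' reads, so the rise of both ratios without them follows from that. Of the windows, 11 were raised with 1 line for both sides (6.82% of all 396) and 3 of 12 with windows of 20 kb (8.08% of all 198). All 24 alternative values of single genes lay within the exact interval of the value reported. The number of unique ends limits the shorter genes, with 22 in Zfp830 and 27 each in Fndc8 and Nle1. No paired analysis was possible because there is 1 library per viewpoint.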
